A study of Homo sapiens with 6 samples.

Results

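The genes described here are 36 genes of glucose uptake, glycolysis, the lactate and pyruvate branch, and the wider response of cells to low oxygen. They were taken by name from the deposited expression table, which lists 24294 loci, and 35 of the 36 had a row. TPI1, the triose phosphate isomerase gene, was not analysed here. A row was tested where its mean over the libraries was at least 1 FPKM, fragments per kilobase of transcript scaled to the mapped fragments of the library, and 33 of the 35 genes passed, among 11574 tested loci. PDK3 and CA9 had rows below that minimum and are given by their levels only.

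The cells were MCF12A, a human breast line that the labels class as a cancer line although MCF12A is known from other work as mammary epithelium that was immortalized and does not form tumours. One group of 3 libraries came from MCF12A cells carrying stable over-expression of miR-424, and the other group of 3 came from MCF12A cells carrying an empty vector (EV). Both groups were grown for 48 hours, and mRNA was sequenced. The labels do not give the vector, its promoter, whether each line was a clone or a pool, or the oxygen tension, and no hypoxic culture is named, so the genes were read in cells under the ordinary conditions of the study. Since 1 miR-424 line was set against 1 EV line, any other difference between those lines cannot be told apart from the microRNA, and nothing in the labels says that the replicates of a group were separate cultures beyond being grown in triplicate.

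Glycolysis splits glucose into pyruvate, with hexokinase trapping glucose in the cell, phosphofructokinase setting the pace, and lactate dehydrogenase interconverting pyruvate and lactate. When oxygen falls, prolyl hydroxylases stop marking the alpha subunits of the hypoxia-inducible factors (HIF) for destruction by the VHL ubiquitin ligase, which is built on the scaffold protein CUL2, and HIF then binds short DNA motifs to raise glucose transporters, most glycolytic enzymes and genes of mitophagy, pH control, collagen processing and signalling. CUL2 has been described as a miR-424 target in endothelial cells, where the microRNA stabilizes HIF-1 alpha, which is why this group of genes is of interest in cells that over-express it.

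A microRNA pairs with messenger RNAs mainly through its seed, bases 2 to 8 of the mature strand. The mature sequence of the over-expressed microRNA, from RefSeq (GRCh38.p14, chrX:134546680-134546701, minus strand), is shown with its seed in capitals, because the 7-base sites searched for are its complement.
hsa-miR-424-5p: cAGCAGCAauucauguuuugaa

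The complement of that seed, TGCTGCT, was searched for in the longest 3′ untranslated region among the GENCODE 29 transcripts of each locus. Regions of other transcripts were not searched, and which region these cells use was not tested. It was found for 5 of the 33 tested genes (15.2%), against 2570 of the 10695 tested loci with such a region (24.0%). The regions of the 33 genes were shorter, with a median of 917 bases, against 1258 bases over the tested loci. The sites are shown with the match in capitals because HK2, the 1 gene of the group that passed the test below, holds one of them. The SLC2A3 site and the first PFKFB4 site are followed by an A, the form usually bound best.
HK2: tggtgtagctcctcTGCTGCTcccatctgc
SLC2A3: aggacgcttctgaaTGCTGCTacttaattc
PFKFB4, first site: cgtggctcctgaccTGCTGCTaagagtcac
PFKFB4, second site: ctctcatccttgtgTGCTGCTctgctaaga
CA12, first site: tgtcctggaaattcTGCTGCTtctccaagc
CA12, second site: ttctcctctcctctTGCTGCTcagcacagc
BHLHE40: tctctaggggatccTGCTGCTttgctttcc

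None of these 5 genes was lower in miR-424 cells by the test, against 6.32% of all tested loci. So few genes do not describe loci with a match as a whole. HK2 was higher, and the other 4 did not pass: on the log2(FPKM + 1) scale the difference between miR-424 and EV cells was 0.20 for SLC2A3, 0.06 for PFKFB4, -0.02 for CA12 and -0.09 for BHLHE40. A match in a sequence is a description and does not show that a site is bound.

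The library labels were first set against the data. The locus that the table names MGC16121 and MIR424 (hg19, chrX:133677407-133680741) had 107, 106 and 224 FPKM in miR-424 replicates 1, 2 and 3, against 0.989, 1.27 and 1.23 FPKM in the EV libraries. These are values of mRNA libraries, which do not read the mature microRNA, so its level was not measured here. Keratins 8 and 18 ran from 82.1 to 176 FPKM over the 6 libraries, while the epithelial genes CDH1 and TP63 stayed at or below 0.192 FPKM. The fibroblast genes DCN and COL1A1 were well expressed, at 37.9 to 138 FPKM, while COL1A2, PDGFRA and THY1 reached at most 0.0783 FPKM, and the 10 endothelial markers at most 0.244 FPKM. Of the 10 leukocyte markers, the macrophage and lysosome gene CD68 had 52.7 to 58.5 FPKM and LYZ 1.03 to 1.38 FPKM over the 6 libraries, CD14 reached 0.557 FPKM, and the other 7, PTPRC among them, reached at most 0.0829 FPKM. Of the mammary epithelial markers 9 were tested: KRT14 was higher and KRT5 and ITGB4 were lower in miR-424 cells by limma, KRT5 at 40.8, 37.5 and 43.9 FPKM in miR-424 cells, against 65.3, 61.1 and 64.6 FPKM in EV cells. COL1A1 was higher as well, at 46.9, 43.6 and 45.1 FPKM in miR-424 cells, against 40.7, 38.5 and 37.9 FPKM in EV cells. All 3 tested fibroblast markers had log2 differences above 0, with a median of 0.206, against -0.047 over all tested loci. The part of any such shift in the results was not tested. Summed FPKM lay between 409776 and 424564 per library. MiR-424 replicate 3 stood apart: its median absolute log2 difference over the tested loci was 0.142 from replicate 1 and 0.152 from replicate 2, against 0.0408 between replicates 1 and 2 and at most 0.0417 between any 2 EV libraries. In bulk RNA of this kind, a smaller share of cells expressing a gene and less RNA of that gene per cell cannot be told apart.

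The group spans more than 3 orders of magnitude in level. GAPDH led, with 3460, 3451 and 4193 FPKM in miR-424 cells, against 3859, 3863 and 3865 FPKM in EV cells. ENO1, PKM2, ALDOA and LDHB came next in mean level, and PDK3, CA9, ANKRD37 and SLC2A3 closed the order at 1.39 FPKM or less in every library. Together the 16 enzymes from hexokinase to lactate dehydrogenase made up 2.03, 2.02 and 2.27% of all FPKM in miR-424 replicates 1, 2 and 3, against 2.07, 2.08 and 2.09% in the EV libraries. MiR-424 replicates 1 and 2 were thus below every EV library in this sum, and replicate 3 was above them all. GAPDH, the largest term of the sum, had that same order of libraries. The sum without GAPDH was not computed, so the order does not describe the other enzymes. The 21 uptake, glycolysis and pyruvate genes, GAPDH among them, were above the EV mean at the median. Their median log2 difference was 0.042, 0.011 and 0.078 in miR-424 replicates 1, 2 and 3.

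**Figure D1:**
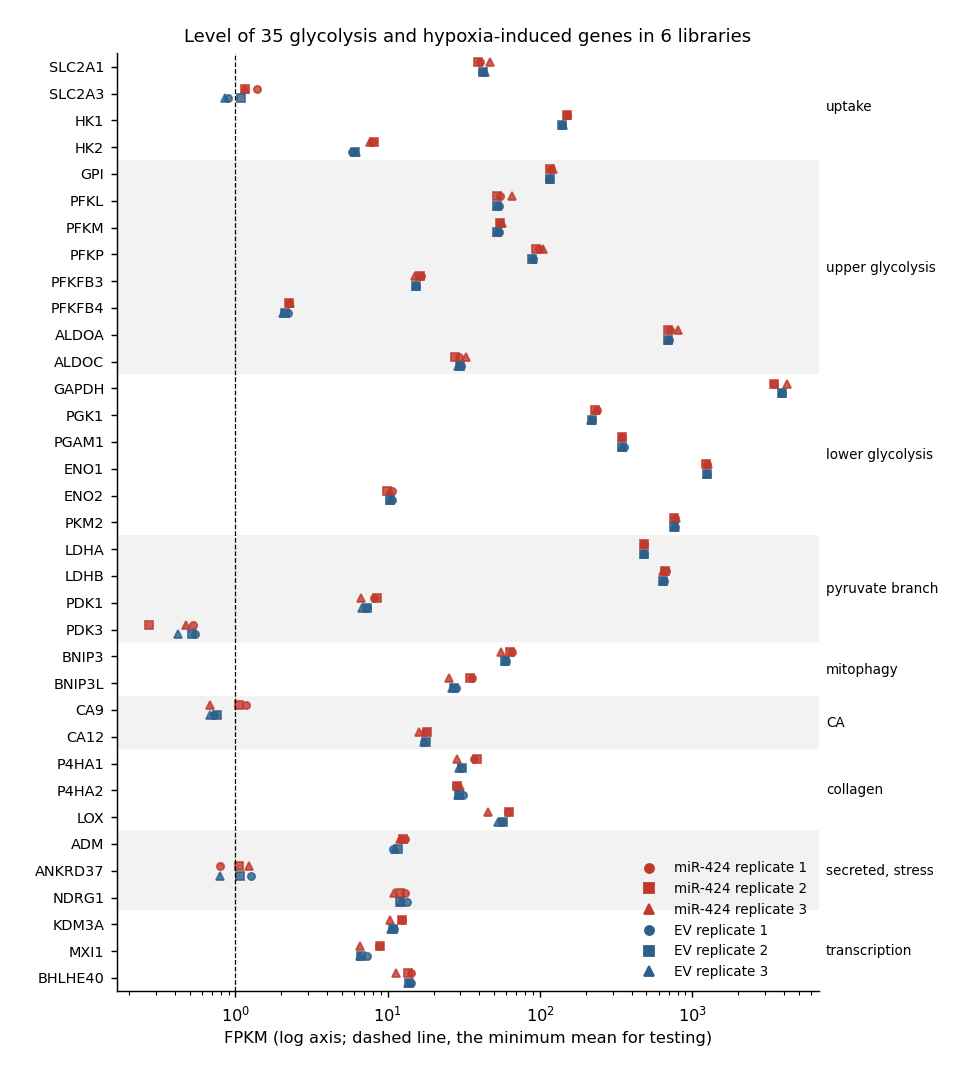
FPKM (log axis) of the 35 genes with a row in each of the 3 miR-424 libraries (red, upper of each pair) and the 3 EV libraries (blue, lower), ordered by role; the dashed line is the 1 FPKM minimum mean for testing. Levels run from GAPDH, at 3451 FPKM or more in all 6 libraries, to PDK3, below 1 FPKM in all 6, and the groups of most genes lie close together.

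Of the 33 tested genes, HK2 was the only one that differed between miR-424 and EV cells at an adjusted p below 0.05 (limma on log2(FPKM + 1), two-sided, Benjamini-Hochberg over all 11574 tested loci). HK2 was higher and none was lower. Over all tested loci, 144 were higher (1.24%) and 731 lower (6.32%) by the same test. At an unadjusted p below 0.05, 6 of the 33 genes passed, all higher, against 23.6% of all tested loci in either direction. The differences of the 33 ran from -0.09 to 0.34, with 22 above 0 and 11 below. Their median was 0.046, against -0.047 over all tested loci, where 3674 were above 0 and 7900 below. In 8 of the 33, every miR-424 library was above every EV library, which held for 6.59% of tested loci, and in 1 gene, LDHA, every miR-424 library was below every EV library, which held for 26.9%.

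**Figure D2:**
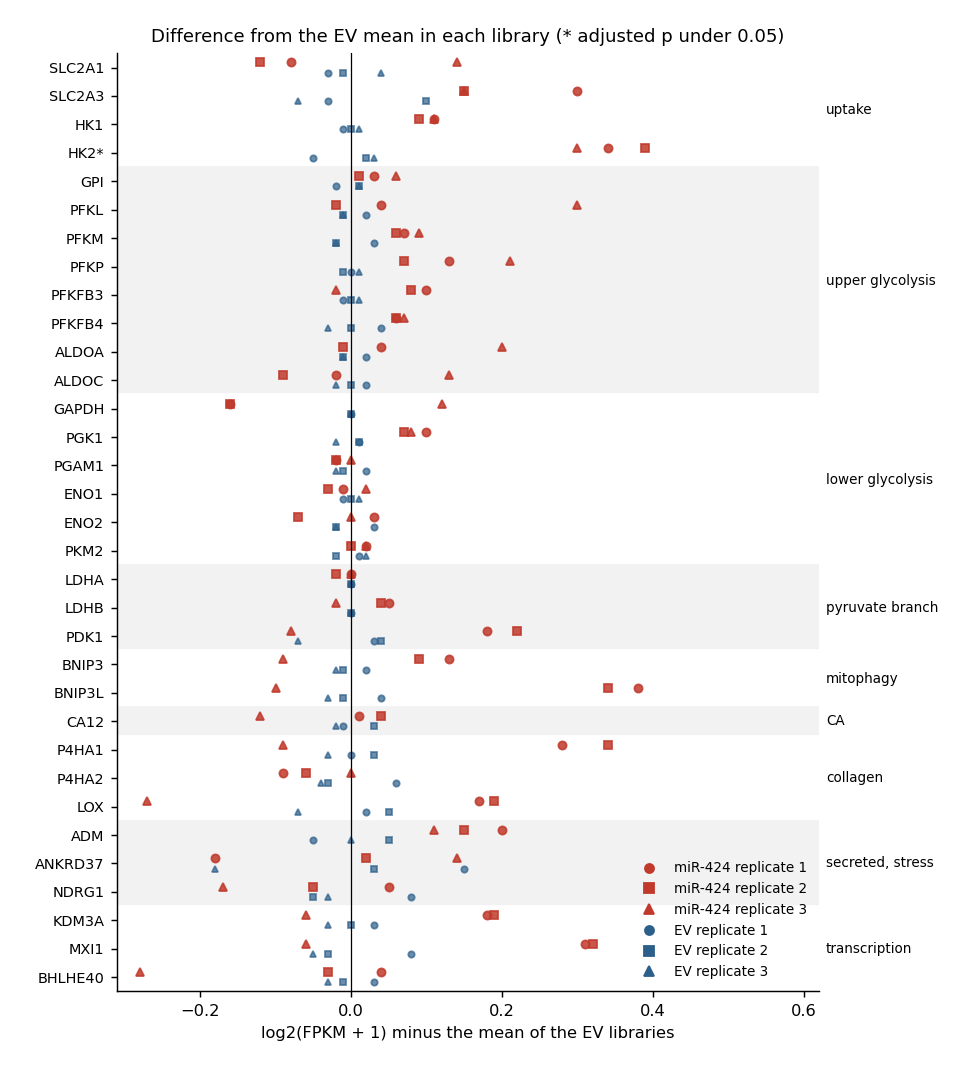
Difference of each library from the EV mean on the log2(FPKM + 1) scale for the 33 tested genes, with miR-424 libraries in red (upper of each pair) and EV libraries in blue (lower), and a symbol for each replicate number. HK2, marked with an asterisk, is the 1 gene past the adjusted threshold, with its 3 miR-424 libraries between 0.30 and 0.39; from PDK1 down to MXI1, many genes have replicates 1 and 2 to the right of 0 and replicate 3 to its left.

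Glucose uptake and trapping held the clearest difference. HK2, hexokinase 2, is the inducible hexokinase of growing and tumour cells (hg19, chr2:75059782-75120481). It had 7.85, 8.17 and 7.64 FPKM in miR-424 cells, against 5.78, 6.10 and 6.14 FPKM in EV cells. Every miR-424 library was above every EV library, and replicate 3 was not an exception here. HK2 averaged 7.89 ± 0.265 FPKM in miR-424 cells and 6.0 ± 0.198 FPKM in EV cells (SD, n = 3 each), 1.31-fold higher, with a log2 difference of 0.34 ± 0.046 (SE) and an adjusted p of 0.00947 by limma. The direction held in all 17 alternative fits, at 0.32 to 0.40, and the call held in 14. It was lost with any 1 EV library left out, at adjusted p = 0.0641, 0.0663 and 0.059 without EV replicates 1, 2 and 3.

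HK1, the constitutive hexokinase bound to mitochondria in most tissues, was the main hexokinase transcript in these cells (hg19, chr10:71029756-71161637). It had 151, 150 and 151 FPKM in miR-424 cells, against 140, 140 and 141 FPKM in EV cells. The groups did not overlap, but the difference was small: 150 ± 0.679 FPKM in miR-424 cells and 140 ± 0.621 FPKM in EV cells (SD, n = 3 each), 1.07-fold, with a log2 difference of 0.10 ± 0.031 (SE) and an adjusted p of 0.102 by limma. HK1 passed the threshold in 5 of the 17 alternative fits, among them removal of the GC trend and omission of miR-424 replicate 3, described further on.

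The 2 glucose transporters of the group did not pass. SLC2A1, the basal transporter GLUT1, had 40.3, 39.0 and 47.1 FPKM in miR-424 cells, against 41.8, 42.4 and 43.7 FPKM in EV cells. Replicates 1 and 2 of the miR-424 cells were below every EV library and replicate 3 above them all. SLC2A3, the high-affinity transporter GLUT3, was near the minimum for testing, with 1.39, 1.16 and 1.15 FPKM in miR-424 cells, against 0.897, 1.09 and 0.855 FPKM in EV cells. Its groups did not overlap, with an adjusted p of 0.138 by limma. SLC2A3 has a close copy, SLC2A14, and reads shared between them may have been split in ways the table does not show.

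**Figure D3:**
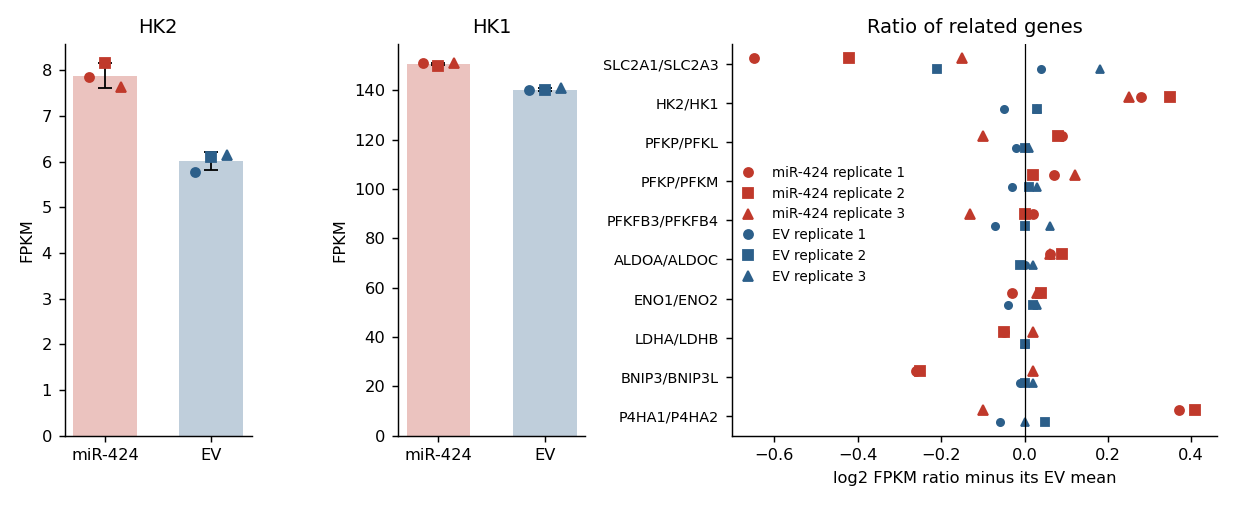
Left and middle, FPKM of HK2 and HK1 with a point per library, the bar at the group mean and the error bar ± 1 SD (n = 3), miR-424 left of EV. Right, log2 ratio of the FPKM of 10 pairs of related genes, each minus its EV mean; the HK2/HK1 ratios of the 3 miR-424 libraries lie right of all EV ratios, and BNIP3/BNIP3L and P4HA1/P4HA2 have miR-424 replicates 1 and 2 far from replicate 3.

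The share of HK2 in the summed FPKM of HK1 and HK2 was 4.94, 5.18 and 4.82% in miR-424 cells, against 3.97, 4.18 and 4.18% in EV cells. The log2 ratio of HK2 to HK1 was 0.29 higher in miR-424 cells, at -4.25 ± 0.054 in miR-424 cells and -4.55 ± 0.043 in EV cells (SD, n = 3 each), and the groups did not overlap. The two-sided exact permutation test gave p = 0.1, the smallest that 3 against 3 libraries allow, and 0.5 after Benjamini-Hochberg adjustment over the 10 pairs tested. HK1 thus remained by far the larger hexokinase transcript in every library.

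Upper glycolysis showed small differences, none past the threshold. The 3 subunits of phosphofructokinase 1, the committed step, are encoded by PFKL, PFKM and PFKP. PFKP, the platelet type, had 98.3, 94.2 and 104 FPKM in miR-424 cells, against 89.7, 88.8 and 90.2 FPKM in EV cells, with no overlap and an adjusted p of 0.117 by limma. PFKM, the muscle type, had 55.0, 54.6 and 56 FPKM in miR-424 cells, against 53.7, 51.9 and 51.8 FPKM in EV cells, again with no overlap. PFKL, the liver type, had 54.3, 52.1 and 65.3 FPKM in miR-424 cells, against 53.4, 52.2 and 52.4 FPKM in EV cells. Its mean rested on replicate 3, and replicates 1 and 2 stayed near the EV levels.

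PFKFB3 and PFKFB4 make and degrade fructose-2,6-bisphosphate, the strongest activator of phosphofructokinase 1. PFKFB3 had 16.6, 16.3 and 15.1 FPKM in miR-424 cells, against 15.3, 15.4 and 15.4 FPKM in EV cells. PFKFB4 had 2.26, 2.25 and 2.28 FPKM in miR-424 cells, against 2.20, 2.11 and 2.05 FPKM in EV cells. The PFKFB4 groups did not overlap and the PFKFB3 groups did, and neither gene passed the test. GPI, which converts glucose 6-phosphate to fructose 6-phosphate, lay at 117 to 121 FPKM in miR-424 cells and 114 to 117 FPKM in EV cells.

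ALDOA, the main aldolase, was the most abundant gene of this step (hg19, chr16:30064411-30081741), with 719, 695 and 801 FPKM in miR-424 cells, against 708, 694 and 695 FPKM in EV cells. It averaged 738 ± 55.5 FPKM in miR-424 cells and 699 ± 7.64 FPKM in EV cells (SD, n = 3 each), with a log2 difference of 0.08 ± 0.056 (SE) and an adjusted p of 0.485 by limma. ALDOC, the brain-type aldolase and a HIF target, had 27.7 to 32.6 FPKM in miR-424 cells and 29.1 to 30.1 FPKM in EV cells. The log2 ratio of ALDOA to ALDOC was 4.62, 4.65 and 4.62 in miR-424 cells, against 4.56, 4.55 and 4.58 in EV cells. These groups did not overlap, for a difference of 0.07 with p = 0.1 by the exact permutation test, and 0.5 after adjustment.

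Lower glycolysis, from GAPDH to pyruvate kinase, was nearly level between the groups. GAPDH, the dehydrogenase often used as a reference gene (hg19, chr12:6643585-6647537), averaged 3701 ± 426 FPKM in miR-424 cells and 3862 ± 3.16 FPKM in EV cells (SD, n = 3 each), a log2 difference of -0.07 ± 0.077 (SE) with an adjusted p of 0.669 by limma. Its 3 EV libraries were almost identical, whereas miR-424 replicates 1 and 2 were below all of them and replicate 3 above all of them. PGK1, phosphoglycerate kinase 1, had 235, 231 and 232 FPKM in miR-424 cells, against 221, 221 and 217 FPKM in EV cells. The PGK1 groups did not overlap, with an adjusted p of 0.178 by limma.

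For PGAM1, ENO1, ENO2 and PKM2, which carry out the steps to pyruvate, the log2 differences lay between -0.01 and 0.01. ENO1, the general enolase, had 1244, 1222 and 1269 FPKM in miR-424 cells, against 1243, 1249 and 1257 FPKM in EV cells. PKM2, as the table names the pyruvate kinase locus, had 775, 764 and 779 FPKM in miR-424 cells, against 770, 754 and 775 FPKM in EV cells. The row does not separate the splice forms of pyruvate kinase. Several of these genes, GAPDH and PGK1 among them, have processed pseudogenes, and the sources used here do not say how reads shared with such copies were counted.

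In the lactate and pyruvate branch, LDHA, the muscle-type lactate dehydrogenase and a textbook HIF target, had 483, 479 and 483 FPKM in miR-424 cells, against 484, 483 and 485 FPKM in EV cells. The groups did not overlap at full precision, yet the log2 difference was -0.01 ± 0.03 (SE), and it turned to 0.05 with median-of-ratios scaling. LDHB, the heart-type enzyme and the more abundant of the pair (hg19, chr12:21788275-21810789), had 667, 664 and 638 FPKM in miR-424 cells, against 648, 646 and 646 FPKM in EV cells. It averaged 656 ± 15.7 FPKM in miR-424 cells and 647 ± 0.95 FPKM in EV cells (SD, n = 3 each), a log2 difference of 0.02 ± 0.033 (SE) with an adjusted p of 0.763 by limma. LDHA made up 42.0, 41.9 and 43.1% of the summed FPKM of LDHA and LDHB in miR-424 cells, against 42.8% in each EV library.

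PDK1, a kinase that switches off pyruvate dehydrogenase, had 8.18, 8.44 and 6.67 FPKM in miR-424 cells, against 7.26, 7.34 and 6.75 FPKM in EV cells. MiR-424 replicates 1 and 2 were above every EV library and replicate 3 below. PDK3, a second kinase of that family, had 0.523, 0.270 and 0.471 FPKM in miR-424 cells, against 0.542, 0.516 and 0.420 FPKM in EV cells, and was not tested.

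The 12 other hypoxia-induced genes that were tested gave no call, against 1.24% higher and 6.32% lower of all tested loci. At those shares, 12 genes are too few for the lack of calls to describe the subset. Among the mitophagy receptors, BNIP3 (hg19, chr10:133781204-133795435) had 65.0, 63.2 and 55.6 FPKM in miR-424 cells, against 60.1, 58.9 and 58.5 FPKM in EV cells. It averaged 61.3 ± 4.95 FPKM in miR-424 cells and 59.2 ± 0.842 FPKM in EV cells (SD, n = 3 each), a log2 difference of 0.05 ± 0.062 (SE) with an adjusted p of 0.72 by limma. BNIP3L, also called NIX, had 35.8, 34.6 and 25.2 FPKM in miR-424 cells, against 27.9, 27.1 and 26.6 FPKM in EV cells. In both genes miR-424 replicates 1 and 2 lay above every EV library and replicate 3 below every one.

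The carbonic anhydrases CA9 and CA12 sit at the cell surface and help to regulate pH. CA12 was the abundant one (hg19, chr15:63615730-63674075), with 17.6, 18.1 and 16 FPKM in miR-424 cells, against 17.4, 17.8 and 17.2 FPKM in EV cells. CA12 averaged 17.2 ± 1.09 FPKM in miR-424 cells and 17.5 ± 0.327 FPKM in EV cells (SD, n = 3 each), a log2 difference of -0.02 ± 0.053 (SE) with an adjusted p of 0.853 by limma. CA9, one of the most used hypoxia markers, was barely detected, with 1.17, 1.06 and 0.678 FPKM in miR-424 cells, against 0.718, 0.757 and 0.683 FPKM in EV cells. Its mean fell short of the minimum and it was not tested.

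P4HA1 and P4HA2 are catalytic subunits of collagen prolyl 4-hydroxylase, and LOX cross-links collagen and elastin. P4HA1 had 36.7, 38.5 and 28.3 FPKM in miR-424 cells, against 30.3, 30.7 and 29.5 FPKM in EV cells. P4HA2 had 28.0, 28.5 and 29.9 FPKM in miR-424 cells, against 31.2, 29.3 and 29 FPKM in EV cells. The first of them split by replicate as BNIP3L did, and the second overlapped between the groups. LOX (hg19, chr5:121398890-121414055) had 62, 63 and 45.6 FPKM in miR-424 cells, against 55.9, 57.0 and 52.6 FPKM in EV cells. LOX averaged 56.9 ± 9.77 FPKM in miR-424 cells and 55.2 ± 2.26 FPKM in EV cells (SD, n = 3 each), a log2 difference of 0.03 ± 0.12 (SE) with an adjusted p of 0.923 by limma, and its sign turned with single libraries left out.

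ADM, the secreted vasodilator peptide adrenomedullin, had 13.0, 12.5 and 12.1 FPKM in miR-424 cells, against 10.8, 11.6 and 11.1 FPKM in EV cells. The ADM groups did not overlap, with a log2 difference of 0.15 and an adjusted p of 0.101 by limma. NDRG1, a stress and differentiation gene (hg19, chr8:134249414-134309547), had 12.9, 12.1 and 11 FPKM in miR-424 cells, against 13.3, 12 and 12.2 FPKM in EV cells. NDRG1 averaged 12 ± 0.949 FPKM in miR-424 cells and 12.5 ± 0.675 FPKM in EV cells (SD, n = 3 each), a log2 difference of -0.05 ± 0.067 (SE) with an adjusted p of 0.692 by limma. ANKRD37, a small ankyrin-repeat gene induced by HIF-1, had 0.787 to 1.23 FPKM in miR-424 cells and 0.794 to 1.26 FPKM in EV cells.

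Of the chromatin and transcription genes, KDM3A, a histone H3 lysine demethylase, had 12.4, 12.4 and 10.3 FPKM in miR-424 cells, against 11, 10.8 and 10.5 FPKM in EV cells. MXI1, a MAX partner that opposes MYC, had 8.75, 8.83 and 6.53 FPKM in miR-424 cells, against 7.31, 6.71 and 6.56 FPKM in EV cells. Both showed replicates 1 and 2 of the miR-424 cells above every EV library and replicate 3 below. BHLHE40, a repressor also called DEC1 (hg19, chr3:5021097-5026865), had 14.3, 13.6 and 11.3 FPKM in miR-424 cells, against 14.3, 13.8 and 13.6 FPKM in EV cells. BHLHE40 averaged 13.1 ± 1.6 FPKM in miR-424 cells and 13.9 ± 0.312 FPKM in EV cells (SD, n = 3 each), a log2 difference of -0.09 ± 0.084 (SE) with an adjusted p of 0.59 by limma.

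The miR-424 libraries did not behave alike over the group. In 17 of the 33 genes, replicates 1 and 2 were both above every EV library, which held for 26.9% of tested loci. In 8 of these, SLC2A3, HK1, HK2, PFKM, PFKP, PFKFB4, PGK1 and ADM, replicate 3 was above every EV library too (6.59% of tested loci). In the other 9, PFKFB3, LDHB, PDK1, BNIP3, BNIP3L, P4HA1, LOX, KDM3A and MXI1, replicate 3 was below every EV library (17.1% of tested loci). None of the 17 had replicate 3 within the EV range. In 5 genes, replicates 1 and 2 were below every EV library, which held for 35.8% of tested loci, and in SLC2A1 and GAPDH of these replicate 3 was above every EV library.

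By subset the medians were as follows, with no test of a difference between the subsets. Set against the mean of the EV libraries, the 21 uptake, glycolysis and pyruvate genes had a median difference of 0.042, 0.011 and 0.078 in replicates 1, 2 and 3 of the miR-424 cells. In the 12 other hypoxia-induced genes it was 0.15, 0.122 and -0.088. The median GC content of the transcripts was 55% in the 21 genes and 47.7% in the 12. Over all tested loci it was -0.017, -0.019 and -0.113. The medians of the 12 genes were above the EV mean in replicates 1 and 2 and below it in replicate 3, a split that PFKFB3, LDHB and PDK1 of the 21 showed too. The SD over replicates on the log2 scale was larger in miR-424 than in EV cells in 24 of the 33 genes (72.7%), as in 83.1% of tested loci.

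The GC content of the transcripts moved with this split. Over the 33 genes, Pearson's r between GC content and the difference from the EV mean came to -0.56 for replicate 1, -0.63 for replicate 2 and 0.54 for replicate 3 of the miR-424 cells (Spearman's rho -0.45, -0.56 and 0.59), a description across genes whose differences share the same EV mean. In the 11 genes under 46% GC, among them BNIP3L, LOX, P4HA1, PDK1 and MXI1, the median difference was 0.180, 0.187 and -0.062. The 4450 tested loci under 46% GC had 0.040, 0.051 and -0.174, the same order of libraries at a lower level. In the 11 genes over 56% GC, among them GAPDH, PFKL and ALDOA, it was 0.040, -0.009 and 0.111. The 3223 tested loci over 56% GC had -0.079, -0.104 and -0.052, below the EV mean in all 3 libraries.

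**Figure D4:**
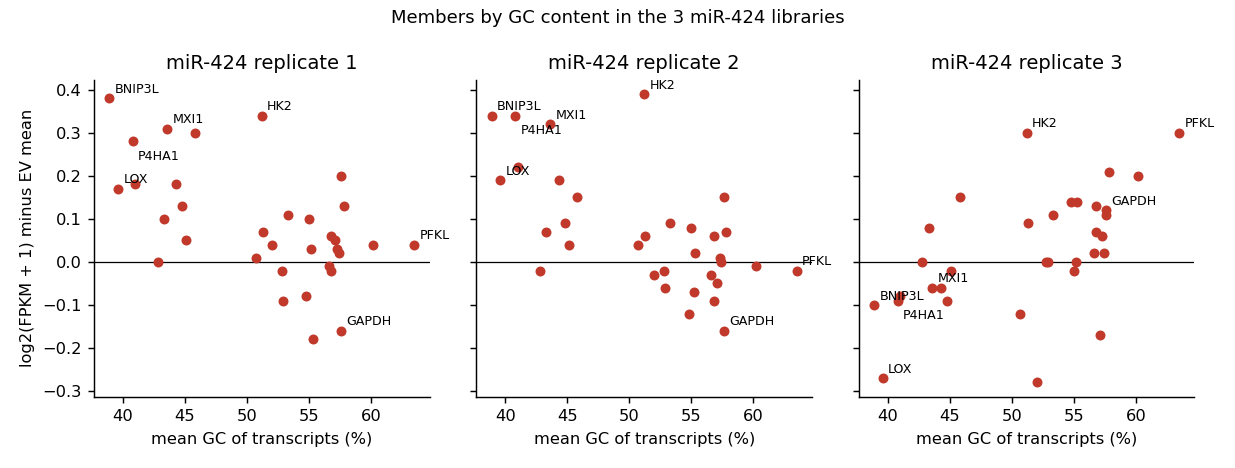
Difference from the EV mean on the log2(FPKM + 1) scale against the mean GC content of the gene's GENCODE 29 transcripts, for the 33 tested genes in each miR-424 library. Several genes of low GC content, among them BNIP3L, P4HA1 and LOX, are high in replicates 1 and 2 and low in replicate 3. Several of high GC content, among them PFKL and GAPDH, are highest in replicate 3. Others go against this: SLC2A3 and PGK1, of low GC content, stay above 0 in replicate 3. ADM and NDRG1, of high GC content, are lowest in it. HK2 is high in all 3.

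With the GC trend of every library removed, which also centres the libraries, 6 of the 33 genes were higher and none was lower by limma, against 5.88% higher and 7.23% lower among all tested loci. The 6 were HK1 (log2 difference 0.16), HK2 (0.39), PFKP (0.21), BNIP3L (0.23), P4HA1 (0.20) and ADM (0.22). Without miR-424 replicate 3, 14 were higher and 2 lower, against 14.9% higher and 22.2% lower among all tested loci, and the 2 lower were GAPDH (-0.16) and SLC2A1 (-0.10). With both changes, 18 were higher and 1, GAPDH, was lower, against 14.5% higher and 15% lower. HK2 was higher in each of these fits. With library weights, 13 were higher and 1 lower, against 10.9% higher and 19.9% lower, with median-of-ratios scaling 2 were higher, against 2.66% higher and 4.28% lower, and with quantile normalization 3 were higher, against 2.76% higher and 3.86% lower. HK2 was among the higher genes in these fits too. After this step the median difference of the 12 other hypoxia-induced genes was 0.117, 0.106 and 0.077 in miR-424 replicates 1, 2 and 3. Replicate 3 then had the sign of the others. In the 21 uptake, glycolysis and pyruvate genes the median difference was then 0.094, 0.092 and 0.175, with all tested loci at 0.002, 0.000 and 0.003. As deposited, all tested loci stood at -0.113 in replicate 3, and the part of centring alone in the change of sign was not tested.

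**Figure D5:**
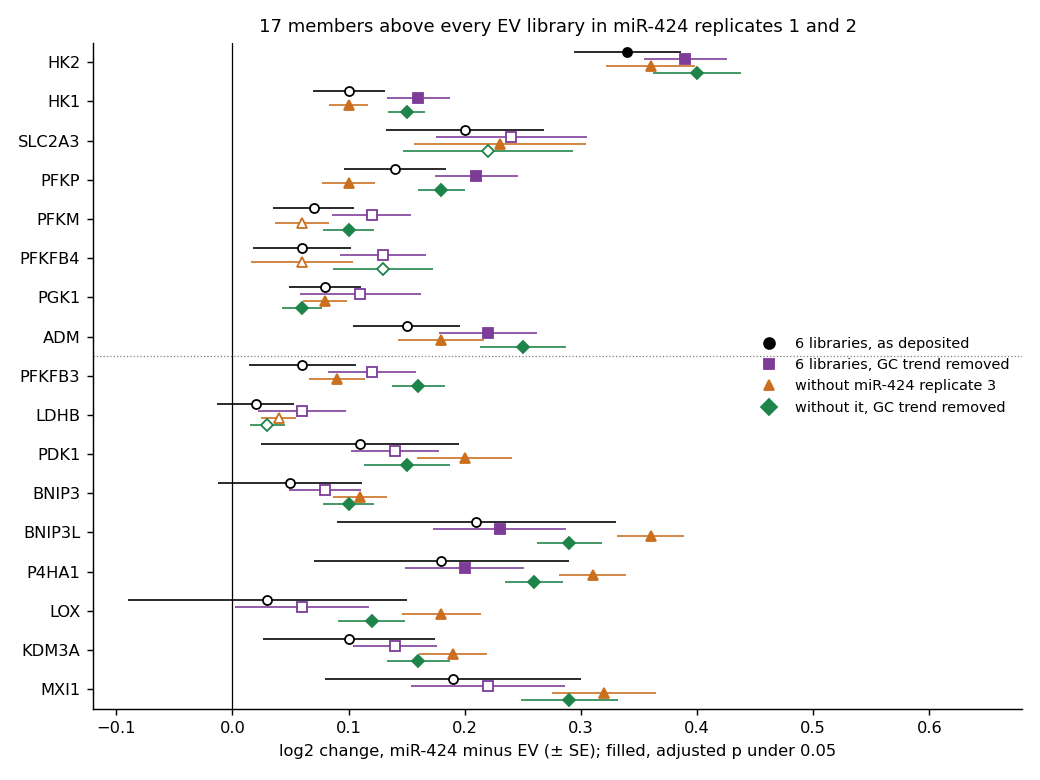
Log2 difference of miR-424 minus EV cells, ± SE, for the 17 genes in which miR-424 replicates 1 and 2 were above every EV library, in 4 fits; filled symbols passed an adjusted p of 0.05, and the dotted line separates genes with replicate 3 above every EV library from those with it below. HK2 is filled in all 4 fits, and the genes under the line move to the right when replicate 3 is left out.

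The ratios of related genes compare members within a library, where a shared scaling cancels. Of 10 pairs, 2 did not overlap between the groups, HK2/HK1 and ALDOA/ALDOC, both described above, and the other 8 did. By the exact permutation test each of the 2 had p = 0.1, and 0.5 after adjustment, so the count does not set the pairs apart. The log2 ratio of P4HA1 to P4HA2 was 0.39, 0.43 and -0.08 in miR-424 cells, against -0.04, 0.07 and 0.02 in EV cells. That of BNIP3 to BNIP3L was 0.86, 0.87 and 1.14 in miR-424 cells, against 1.11, 1.12 and 1.14 in EV cells. In both pairs replicates 1 and 2 of the miR-424 cells stood outside the EV range on the same side. An exact permutation test over the libraries, two-sided, gave p = 0.4 for each, and 0.571 after adjustment. PDK1/PDK3 and CA12/CA9 were left out because 1 gene of each was below the minimum.

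The promoters were searched for the core of the hypoxia response element, the short motif that HIF binds, written ACGTG or GCGTG and counted on either strand, so that the palindrome CACGTG counts on both. RefSeq windows (GRCh38.p14) from 250 bases before to 50 after each start were found for 33 of the 36 genes, not for SLC2A3, BNIP3L and NDRG1. A match was present in 43 of their 60 windows (71.7%), against 17012 of 35116 windows of all genes (48.4%). The median GC content of the windows was 68% for the genes described here and 58.7% for all, and the part of GC content in the motif share was not tested. In 31 of the 33 genes at least 1 window matched, PGAM1 and P4HA2 being the others.

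The windows of HK2 and LDHA with the most matches are shown because both held 6 matches, with the palindrome at 2 places, and because the 2 genes differed in the measurement: HK2 passed the test and LDHA had a log2 difference of -0.01. The 250 bases before the start are printed with matches in capitals. In HK2 (chr2:74834920-74835169, plus strand) the stretch holds all 6 matches, and in LDHA (chr11:18394313-18394562, plus strand) it holds 5. BNIP3 also had a window with 6 matches and ALDOC one with 5, and 1.98% of all windows had 5 or more.
HK2: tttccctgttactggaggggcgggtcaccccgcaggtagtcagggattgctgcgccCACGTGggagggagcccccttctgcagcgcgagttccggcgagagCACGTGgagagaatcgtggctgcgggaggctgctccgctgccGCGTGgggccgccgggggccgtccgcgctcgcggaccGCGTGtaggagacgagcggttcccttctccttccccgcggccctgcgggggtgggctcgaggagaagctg
LDHA: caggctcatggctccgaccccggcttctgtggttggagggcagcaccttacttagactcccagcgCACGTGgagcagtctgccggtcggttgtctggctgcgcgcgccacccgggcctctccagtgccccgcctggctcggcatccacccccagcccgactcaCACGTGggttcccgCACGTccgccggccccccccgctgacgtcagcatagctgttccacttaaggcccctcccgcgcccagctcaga

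The pair was picked for its counts and its test results, and motif count was not compared with change over the group. A match says nothing about whether HIF was bound in these cells.

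Related genes outside the group were counted from lists of the same pathways. Of 42 other genes of glycolysis, glycogen and pyruvate, 31 were tested, 1 rose and 2 fell in miR-424 cells by limma, counts near the 1.24% higher and 6.32% lower of all tested loci, with a median difference of -0.02, against -0.047 over all tested loci. PYGL, liver glycogen phosphorylase, had 38.0, 38.3 and 37.1 FPKM in miR-424 cells, against 33.0, 32.7 and 31.9 FPKM in EV cells (log2 difference 0.21, adjusted p = 0.0201 by limma). PDK4, the fourth pyruvate dehydrogenase kinase, had 13.5, 14.8 and 11.5 FPKM in miR-424 cells, against 18.8, 18.8 and 18.6 FPKM in EV cells (-0.48, adjusted p = 0.0212 by limma). PC, pyruvate carboxylase, had 2.24, 2.05 and 2.35 FPKM in miR-424 cells, against 3.02, 2.82 and 3.31 FPKM in EV cells (-0.33, adjusted p = 0.0272 by limma). PDK4 fell while PDK1 did not pass the test.

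In the pentose phosphate and hexosamine branches, which draw sugar phosphates from glycolysis, all 12 listed genes were tested. Their median difference was 0.023, against -0.047 over all tested loci. Among the 12, 1 rose and 1 fell, against 1.24% higher and 6.32% lower of all tested loci, too few calls to describe the list. Those 2 are paralogs for the first enzyme of the hexosamine pathway. GFPT2 had 16.5, 16.3 and 17.6 FPKM in miR-424 cells, against 13.0, 12.6 and 12.2 FPKM in EV cells (log2 difference 0.39, adjusted p = 0.00736 by limma). GFPT1 had 12.7, 12.7 and 11.1 FPKM in miR-424 cells, against 15, 15.3 and 16.1 FPKM in EV cells (-0.32, adjusted p = 0.0277 by limma).

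Of 45 other HIF target genes, 35 were tested, 2 rose and 2 fell, with a median difference of 0.014. As 1.24% of all tested loci were higher and 6.32% lower, 4 calls among 35 genes are too few to describe the list as a whole. VEGFA, the angiogenic growth factor, had 33.6, 34.8 and 29.7 FPKM in miR-424 cells, against 23.3, 22.0 and 21.7 FPKM in EV cells (log2 difference 0.53, adjusted p = 0.00817 by limma). ANGPTL4, an inhibitor of lipoprotein lipase, had 77.9, 79.0 and 82.7 FPKM in miR-424 cells, against 66.4, 63.8 and 67.5 FPKM in EV cells (0.27, adjusted p = 0.0137 by limma). In the other direction, DDIT4, an inhibitor of mTORC1, had 244, 239 and 245 FPKM in miR-424 cells, against 297, 298 and 296 FPKM in EV cells (-0.29, adjusted p = 0.0055 by limma). CXCR4, the CXCL12 receptor, had 4.5, 4.02 and 4.28 FPKM in miR-424 cells, against 11.9, 11.1 and 10.8 FPKM in EV cells (-1.22, adjusted p = 0.000668 by limma). Of the HIF targets among the glycolytic genes, HK2 rose, while LDHA, PGK1 and SLC2A1 did not pass.

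Of 19 oxygen-sensing regulators, 15 were tested, with a median difference of -0.012, against -0.047 over all tested loci. Among the 15, 1 rose and none fell, against 1.24% higher and 6.32% lower of all tested loci, too few calls to describe the list. The 1 was HIF1A, the HIF-1 alpha gene itself, with 239, 244 and 203 FPKM in miR-424 cells, against 181, 177 and 173 FPKM in EV cells (log2 difference 0.36, adjusted p = 0.0315 by limma). CUL2 had 13.0, 12.6 and 11.6 FPKM in miR-424 cells, against 13.1, 12.3 and 12.3 FPKM in EV cells (-0.02, adjusted p = 0.852 by limma), so its transcript level did not pass the test. HIF activity is set mainly by protein stability, which these RNA measurements do not read. With any 1 EV library left out, none of the genes called higher in these 4 lists kept its call. Of those called lower, only CXCR4 did. Without miR-424 replicate 1 or replicate 2, the calls of HIF1A, PYGL, GFPT1 and PC were lost, and without replicate 1 also that of PDK4. HIF1A (adjusted p = 0.0549 by limma) and PC (adjusted p = 0.0508 by limma) were also lost with no filter on low values, and PC under quantile normalization or median-of-ratios scaling.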

How the data were processed

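Messenger RNA libraries were sequenced from MCF12A cells, 3 with miR-424 and 3 with EV. The authors deposited FPKM per locus for each library, with the TruSeq RNA v2 kit named in the labels, and TopHat 1.4.1, Cufflinks 1.3.0, Cuffdiff and the builds hg19 and GRCh37 named in the submitters' processing notes. The handling of strand, shared reads and replicate pooling is not stated in the sources used here, and this kit does not mark strand, so overlapping antisense transcripts cannot be told apart. Locus starts were listed from 0 (336 of 358 microRNA loci had the hairpin's length as end minus start), so 1 was added.

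Testing, on loci averaging 1 FPKM or more over the libraries, was on log2(FPKM + 1), so that fold changes of low genes are understated, with limma 3.58.1 in R 4.3.3 (trended prior, two-sided, Benjamini-Hochberg over 11574 loci, threshold 0.05). A locus under 2 symbols was matched by either symbol. The fit was tested on simulated data with independent noise and the same SD in both groups. That setting leaves out the larger spread of the miR-424 libraries and the shared deviation of replicate 3. Ratios used an exact permutation test (scipy 1.17.1). GC content and untranslated regions came from GENCODE 29. The deposited values hold no counts: low values gave only a rough relative depth, 0.77 to 1.23 of EV replicate 1, with 3.7 to 12.7% of low loci on the steps, so no count model was used. Statistics in full are given for genes past the threshold and for the highest gene of each role; from each other list, up to 4 genes past the threshold are named, and HIF1A and CUL2 always. The 36 genes and all lists were chosen with earlier results of these data known. With 3 libraries a group, an exact test cannot go below 0.1, and p-values describe variation among these libraries only. Alternatives covered the pseudocount, the filter, scaling, the prior, weights, replicate number, GC trend and each library left out.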

Additional observations from a re-analysis of the deposited data

How the results depend on the processing

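Counts are of genes or loci past an adjusted p of 0.05 in limma, and changes are miR-424 minus EV on the log2 scale. Of the 33 genes, 1 was higher in miR-424 cells as reported, 2 with median-of-ratios scaling, 3 with quantile normalization, 6 with the GC trend removed, 13 with library weights (whose estimation stopped before convergence) and 18 with the GC trend removed and miR-424 replicate 3 left out. None was lower as reported, and 1 was lower with library weights and 1 without miR-424 replicate 3 with the GC trend removed. Leaving out 1 library at a time gave 0 to 14 higher and 0 to 2 lower, the high ends without miR-424 replicate 3. Over all tested loci, 144 were higher and 731 lower as reported; with median-of-ratios scaling 308 were higher, with quantile normalization 319 and 447 lower, with library weights 1256 and 2307 lower, with the GC trend removed 681 higher, with that and replicate 3 left out 1673 and 1735 lower, and with a minimum of 5 FPKM 468 lower. One library left out gave 31 to 1728 higher and 77 to 2574 lower. The cause was not tested.

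The median change of the 33 genes was 0.046 as reported, 0.103 with median-of-ratios scaling, 0.074 with quantile normalization, 0.101 with the GC trend removed and 0.097 with that and replicate 3 left out, while that of all tested loci was -0.047, 0.003, 0.006 and 0.002 in the first 4 of these. HK2 was higher in all 17 alternatives, at 0.32 to 0.40, and past the threshold in 14; the HK2/HK1 difference was 0.24 with 1 added to each FPKM.

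Among genes that did not pass, signs turned in several. SLC2A1 ran from -0.10 to 0.04 over the alternatives, ALDOC from -0.06 to 0.07, PGAM1 from -0.02 to 0.04, ENO1 from -0.02 to 0.06, ENO2 from -0.03 to 0.05, LDHA from -0.04 to 0.05, P4HA2 from -0.08 to 0.01 and ANKRD37 from -0.10 to 0.09. GAPDH was at 0.00 with quantile normalization and with the GC trend removed. CA12 was at 0.03 with median-of-ratios scaling, 0.04 with quantile normalization, 0.02 with library weights, 0.03 with the GC trend removed, 0.03 without miR-424 replicate 3 and 0.06 with both, within -0.06 to 0.03 over 1 library left out. NDRG1 was at 0.01 with library weights, 0.01 with the GC trend removed, 0.00 without miR-424 replicate 3 and 0.07 with both, within -0.11 to 0.00 over 1 library left out. BHLHE40 was at 0.00 with library weights, 0.01 without miR-424 replicate 3 and 0.05 with both, within -0.15 to 0.01 over 1 library left out. LOX ranged over -0.05 to 0.18 with 1 library left out, at -0.04 and -0.05 without miR-424 replicates 1 and 2 and at -0.00 without EV replicate 3.

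Replicate numbers were taken up as a replicate block. Same-numbered libraries deviated together with r = 0.051, 0.152 and 0.127, so the number was not treated as pairing. With the block, 79 loci were higher and 270 lower, and HK2 stayed the 1 gene of the 33 past the threshold, while PYGL (adjusted p = 0.0712 by limma) and GFPT1 (adjusted p = 0.0817 by limma) lost their calls. FPKM values carry no exact depth, so genes near 1 FPKM are the least certain.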
